A study of Homo sapiens with 9 samples.

Results

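The genes described here were 42 named genes. They encode molecular chaperones of the cytosol and of mitochondria, subunits of the TRiC and, apart from VBP1, prefoldin complexes, co-chaperones and 2 heat shock factors. They were taken by gene symbol from a table of 18522 genes measured in THP-1 cells, a line from an acute monocytic leukemia. Of the 42 genes, 39 had a row. HSPA1A, HSPA1B and PFDN6 had none and were not analysed here. All 39 passed the filter on low values (at least 10 in at least 3 libraries), which 15465 genes passed in all.

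The study asked what follows loss of RASSF2, a Ras association domain protein that binds the MST kinases. All cells had received lentivirus with an shRNA construct and had been kept in puromycin at 1 ug/mL for 96 h. The 3 groups differed in the shRNA: shCTRL carried a control shRNA (clone SHC002), and shRASSF2-1 and shRASSF2-2 carried different shRNAs against RASSF2, each a single clone of a public collection. Each group had 3 poly(A) RNA sequencing libraries, with RNA from 2.0 M viable cells per condition. Nothing in the labels says that replicates were separate cultures. The p-values therefore reflect the spread among these libraries alone, and that spread may be technical. RASSF2 stood at 1064 ± 48.4 normalized reads in the control libraries, 164 ± 32.2 in those of shRASSF2-1 and 311 ± 43.5 in those of shRASSF2-2. Here and below such values are mean ± SD with n = 3, in the authors' unit of counts over a size factor, and values of single libraries are in the order of replicates 1, 2 and 3.

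Chaperones bind unfolded or partly folded proteins and, by cycles of ATP binding and hydrolysis, give them repeated chances to fold. HSP70 proteins are loaded with substrate by J-domain proteins and reset by exchange factors of the HSP110 and BAG families, and they pass some substrates to HSP90 through the adaptor STIP1. TRiC, a double ring of paralogous subunits, folds actin and tubulin, which prefoldin delivers to it, and HSPD1 with its lid HSPE1 does the same kind of work in the mitochondrial matrix. HSF1 is the main transcription factor of the heat shock response and binds repeats of the unit nGAAn, called heat shock elements. HSP90 inhibitors have been studied in acute myeloid leukemia, where several mutant kinases depend on HSP90.

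The promoters printed here were chosen because they hold the motif of HSF1. Promoters of 300 bases, from 250 before to 50 after the start, came from RefSeq (GRCh38.p14) for 34 of the 39 genes. There was no entry for HSF1, FKBP4, PFDN2, HSPA14 or CCT6A. Heat shock elements of 3 units, searched on both strands as GAA, TTC and GAA or TTC, GAA and TTC with 2 bases of any kind between neighbours, were in 4 of the 34 (11.8%) and in 133 of all 27305 promoters of the table (0.487%). They are the capitals in the promoters of CHORDC1 at chr11:90223000-90223299 and HSPA8 at chr11:123062087-123062386, both on the minus strand, and of DNAJA1 at chr9:33025023-33025322 and DNAJB6 at chr7:157336754-157337053, both on the plus strand.
CHORDC1: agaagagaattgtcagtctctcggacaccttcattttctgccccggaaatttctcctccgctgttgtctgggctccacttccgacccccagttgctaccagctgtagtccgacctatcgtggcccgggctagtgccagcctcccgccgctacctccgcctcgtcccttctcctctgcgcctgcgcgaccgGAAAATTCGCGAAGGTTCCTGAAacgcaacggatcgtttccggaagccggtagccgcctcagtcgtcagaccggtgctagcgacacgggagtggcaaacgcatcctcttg
HSPA8: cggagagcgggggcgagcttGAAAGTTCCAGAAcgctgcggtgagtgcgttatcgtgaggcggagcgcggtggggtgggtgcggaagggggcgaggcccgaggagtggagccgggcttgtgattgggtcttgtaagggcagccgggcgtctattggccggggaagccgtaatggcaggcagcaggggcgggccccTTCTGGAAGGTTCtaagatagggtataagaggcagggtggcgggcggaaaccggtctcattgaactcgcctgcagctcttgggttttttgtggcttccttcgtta
DNAJA1: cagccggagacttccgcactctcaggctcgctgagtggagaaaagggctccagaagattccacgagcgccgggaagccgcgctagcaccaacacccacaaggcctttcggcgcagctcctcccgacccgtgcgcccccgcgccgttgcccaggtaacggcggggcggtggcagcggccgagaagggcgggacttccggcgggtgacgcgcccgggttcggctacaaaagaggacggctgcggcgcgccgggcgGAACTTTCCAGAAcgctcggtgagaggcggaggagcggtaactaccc
DNAJB6: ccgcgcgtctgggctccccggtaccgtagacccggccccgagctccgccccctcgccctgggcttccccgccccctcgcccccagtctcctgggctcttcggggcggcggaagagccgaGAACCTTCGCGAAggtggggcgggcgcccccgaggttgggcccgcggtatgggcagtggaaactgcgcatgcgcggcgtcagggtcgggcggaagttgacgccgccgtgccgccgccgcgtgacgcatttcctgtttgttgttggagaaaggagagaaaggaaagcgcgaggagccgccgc

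In CHORDC1 the capitals are 3 overlapping matches from -60 to -38, counted from the start. HSPA8 has separate matches that begin at -230 and -55, DNAJB6 has a match at -131, and in DNAJA1 it begins at base 3 after the start. The shorter element of 2 units, GAANNTTC, which lies inside every match of 3 units, was in 7 of the 34 (20.6%) and in 6.87% of all promoters. The 3 genes that it adds are BAG2, HSPB1 and TCP1. A match is a description of the letters only.

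The 39 genes held a smaller share of the reads with either shRNA than in any control. They took 1.08%, 1.56% and 1.57% of reads in the 3 control libraries, 0.844%, 0.818% and 0.770% in those of shRASSF2-1, and 0.801%, 0.816% and 0.766% in those of shRASSF2-2. With shRASSF2-1, 28 of the 39 fell and 1 rose (limma on log2(value + 1), adjusted p under 0.05 over all genes tested), where 29.2% of all genes tested were lower and 26.9% higher. With shRASSF2-2, 23 fell and 3 rose, against 29.1% of all genes lower and 31.8% higher. The median log2 fold change of the members was -0.85 with shRASSF2-1, beside 0.02 over all genes, and -0.55 with shRASSF2-2, beside 0.04. In bulk RNA, fewer cells with a transcript and less of it per cell cannot be told apart.

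Both comparisons share the 3 control libraries, so they are given side by side and not as independent. With both shRNAs 20 members fell and 0 rose, against 16.7% of all genes lower with both and 14.5% higher with both. The 20 were all 8 TRiC subunits, HSP90AA1, HSP90AB1, STIP1, PTGES3, FKBP4, HSPA4, HSPA8, HSPH1, BAG2, DNAJA2, HSPD1 and HSPA9. A further 7 fell with shRASSF2-1 and missed the threshold with shRASSF2-2: CHORDC1, DNAJA1, DNAJB1, HSF1, HSPB1, HSPE1 and PFDN2. Of these, CHORDC1, DNAJA1, DNAJB1, HSPE1 and PFDN2 were called lower with shRASSF2-2 when control replicate 1 was left out. DNAJA3, HSPA14 and PFDN4 fell with shRASSF2-2 and missed the threshold with shRASSF2-1. HSPA14 and PFDN4 were called lower with shRASSF2-1 without control replicate 1. DNAJB4 and DNAJB6 rose with shRASSF2-2, DNAJC7 rose with shRASSF2-1, and BAG3 fell with the first and rose with the second. AHSA1, DNAJC2, HSF2, PFDN1 and PFDN5 were called with neither.

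**Figure D1:**
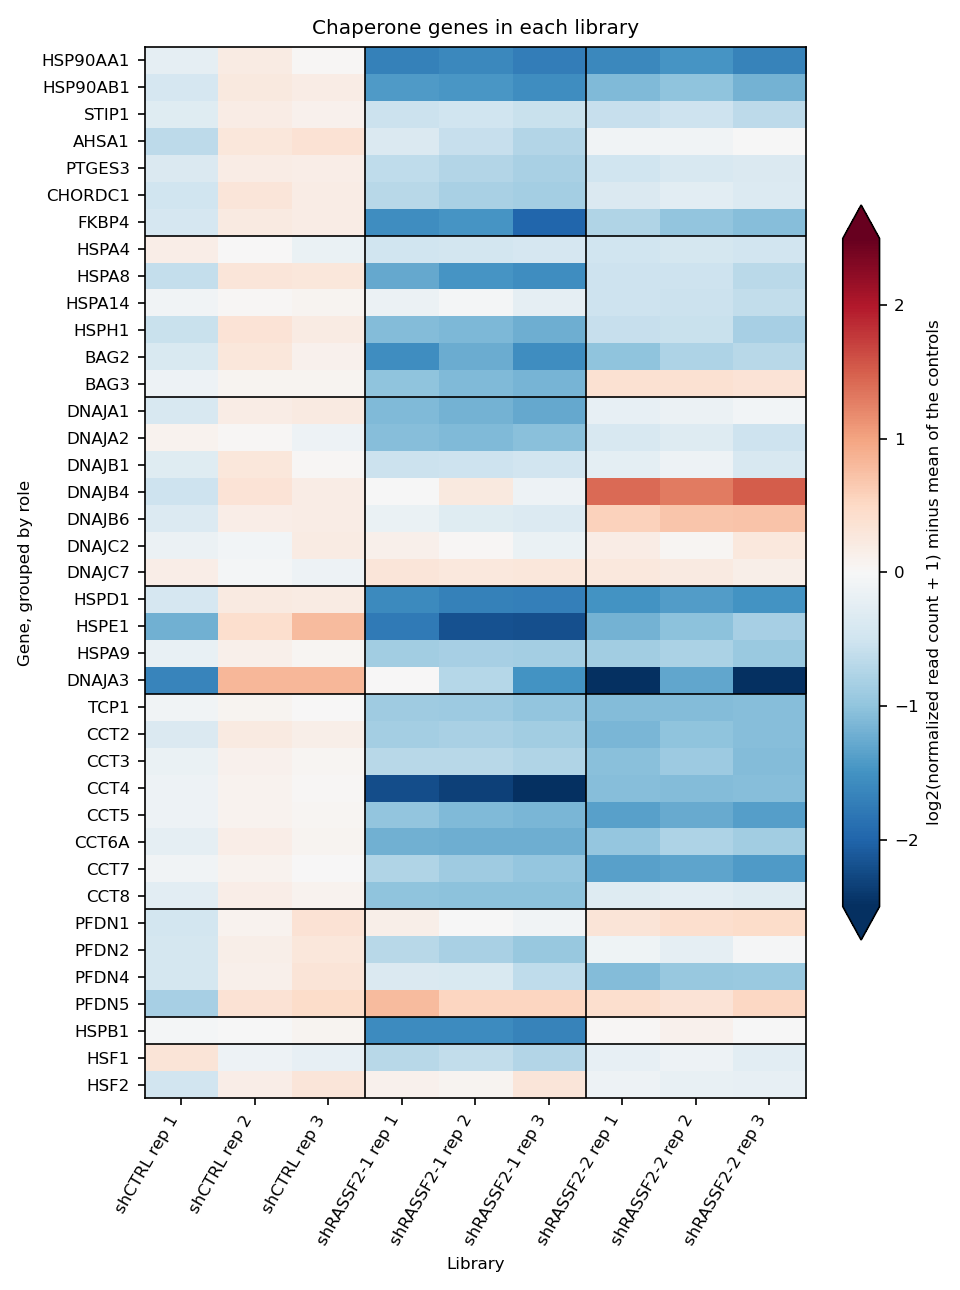
Each row is a chaperone gene, grouped by role and in the order of the text, and each column a library. Colour is log2(normalized read count + 1) minus the mean of the 3 controls, cut at 2.5 in either direction. Most rows are blue in the 6 knockdown libraries, and shCTRL replicate 1 is bluer than the other controls in 35 of 39 rows.

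**Figure D2:**
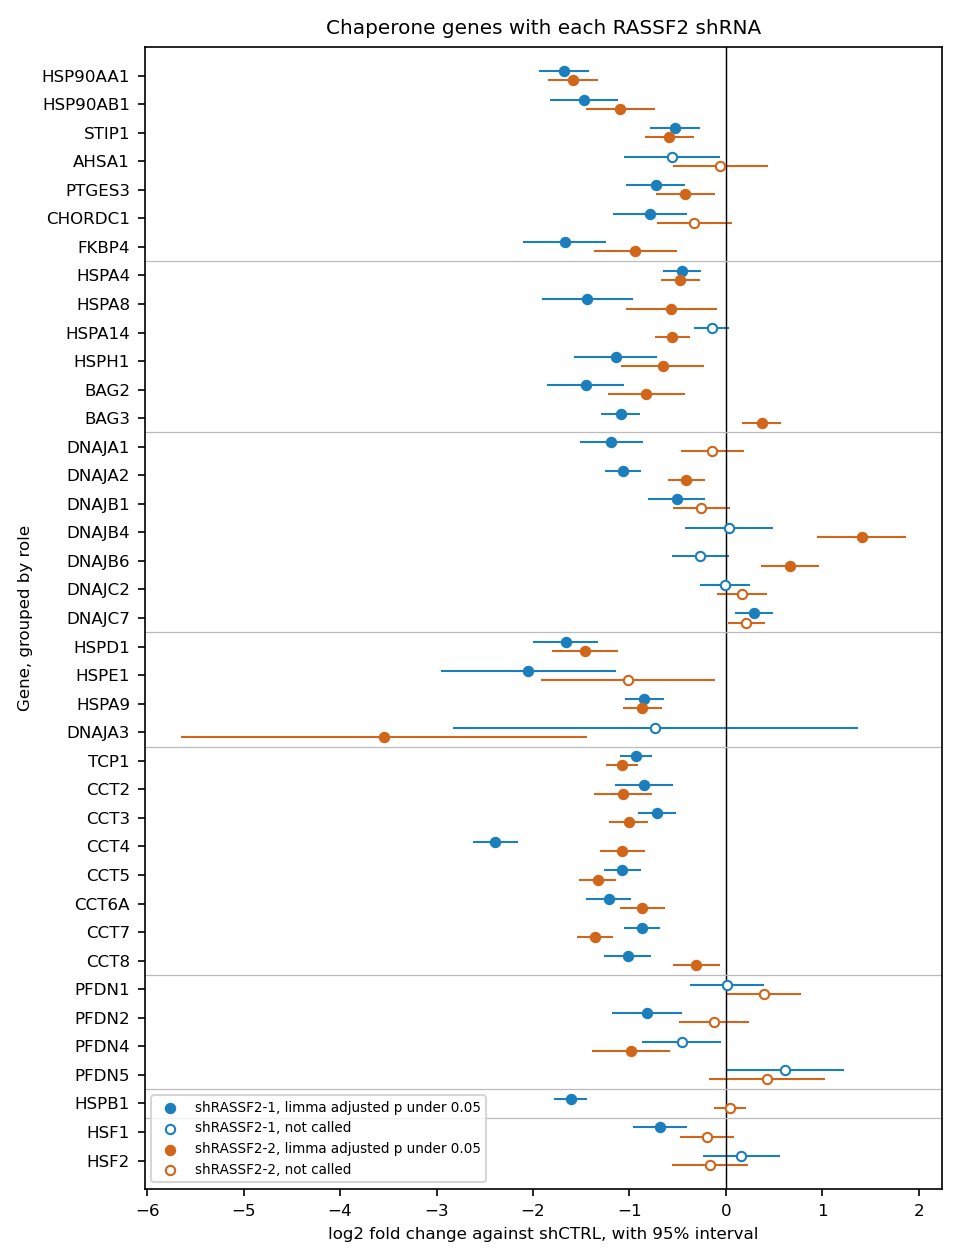
Log2 fold change of each gene against the controls, with its 95% interval from limma, for shRASSF2-1 and shRASSF2-2. Filled points passed the test and open points did not. For HSPB1, BAG3, DNAJB4, DNAJB6, DNAJA1, DNAJA2, CCT4, CCT7, CCT8 and HSPA14 the intervals of the 2 shRNAs do not overlap.

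Depth was 13.3 to 20.1 M reads per library. In these genes control replicate 1 differed from its fellow controls: 35 of the 39 were lower in it than in the mean of the other controls, with a median log2 difference of -0.53, against 8105 of 15465 genes and -0.03 over all. RNR2, the large mitochondrial ribosomal RNA, took 2.27% of reads in control 1 and 0.705% to 1.21% in the other 8 libraries. All mitochondrial transcripts together took 5.86% to 7.45% in the controls, 4.31% to 5.24% for shRASSF2-1 and 2.61% to 3.61% for shRASSF2-2, without overlap between groups. The part of either in the results was not tested. A separate flow cell, per the labels, held controls 1 and 2, and control 3 was run beside all 6 knockdown libraries on another. Without control replicate 1, 32 members fell and 2 rose with shRASSF2-1, and 30 fell and 4 rose with shRASSF2-2. Over all genes of that fit 33.9% were lower and 32.5% higher with shRASSF2-1, and 33.6% and 35.9% with shRASSF2-2. Among the 7 libraries of the shared flow cell, which hold a single control, the counts were 32 and 1, then 30 and 4, beside 30.3% and 27.7%, then 29.8% and 32.1%, of all genes. The normalized values summed to 12.6 to 12.8 M with shRASSF2-1 and to 15.9 to 16.9 M in the other groups. Scaling every library to an equal total of reads instead moved the median of all genes with shRASSF2-1 from 0.02 to 0.39 and the split of all genes from 4509 lower and 4160 higher to 2596 and 6981. The members then split into 22 lower and 5 higher, with a median of -0.47, which is -0.86 relative to all genes and -0.87 before. With shRASSF2-2 this scaling gave 23 lower and 3 higher, the same numbers as before.

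The myeloid markers of the labelled cell line were present, with 11 of 11 in the table. With shRASSF2-1, 4 of the 11 fell and 4 rose (36.4% each, beside 29.2% and 26.9% of all genes). With shRASSF2-2, 4 fell and 6 rose (36.4% and 54.5%, beside 29.1% and 31.8%). Among the 11, CD33, SPI1, CEBPA, CSF1R, ITGB2, CD68, LYZ and FCGR1A each had at least 781 normalized reads in every library, and ITGAM at least 507. CD14 was low, with 14.5 to 36.6 in the controls, 111 to 137 for shRASSF2-1 and 331 to 460 for shRASSF2-2. LYZ went the other way, with 5225 to 9530 in the controls and 2593 to 3295 in the knockdowns. MPO had 50.6 to 59.3 in the controls and 0 to 5.49 in the knockdowns. The sum of the 11 ran from 31881 to 40729 among controls, from 39474 to 39499 for shRASSF2-1 and from 70194 to 74274 for shRASSF2-2. Epithelial markers, 6 of 7 with a row, summed to 20.6, 29.1 and 720 in controls 1, 2 and 3, 400 to 2253 with shRASSF2-1 and 1551 to 1953 with shRASSF2-2. Of the 4 tested, 3 were called higher with shRASSF2-1 (75%) and 4 with shRASSF2-2 (100%), beside 26.9% and 31.8% of all genes, and none was called lower. The medians of these 4 were 3.54 and 4.37, and 0.20 and 0.89 among the libraries of the shared flow cell, which hold 1 control. KRT8 read 16.9 to 198 in the controls and 106 to 496 in the knockdowns, and FCGBP 2.49 to 331 and 119 to 1545. EPCAM was at 0 in 3 libraries and at most 18.6 in the others. Erythroid markers were not analysed here. T and NK cell markers (5 of 7 with a row) summed to 13.3 to 71.4, B cell markers (3 of 4) to 65.8 to 257, and connective tissue and vessel markers (6 of 9, mostly PECAM1, which monocytes also express) to 4173 to 7162. Of the last list, 3 of 5 tested were called higher and 1 lower with shRASSF2-1, and 4 and 1 with shRASSF2-2. The medians of these 5 were 2.02 and 2.84, and 0.75 and 1.85 among the libraries of the shared flow cell. SPARC read 0 to 69.4 in the controls and 75.3 to 538 in the knockdowns. The part of these markers in the chaperone results was not tested.

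The 2 cytosolic HSP90 genes fell with both shRNAs. HSP90AA1, the stress-responsive form, read 23529.8, 31987 and 28054 in the control libraries, 8609, 9009 and 8373 in those of shRASSF2-1 and 9062, 10009.5 and 8662 in those of shRASSF2-2. Every knockdown library lay below every control, with log2 fold changes of -1.67 (SE 0.12, limma adjusted p = 1.43e-06) and -1.58 (adjusted p = 9.56e-07). HSP90AB1, the more constant form, fell from 34661 ± 8201 to 12242 ± 557 and 15915 ± 1025, with log2 changes of -1.47 and -1.09. HSP90AA1 made up 42.0% to 48.3% of the summed reads of this pair among controls, 40.4% to 42.1% for shRASSF2-1 and 36.3% to 37.1% for shRASSF2-2.

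Of the 7 genes for HSP90 and its co-chaperones, 6 fell with shRASSF2-1 (85.7%) and 5 with shRASSF2-2 (71.4%), beside 29.2% and 29.1% of all genes. FKBP4, an immunophilin of steroid receptor complexes, fell from 762 ± 176 to 236 ± 42.8 and 391 ± 44.8, with log2 changes of -1.67 (limma adjusted p = 4.18e-05) and -0.94 (adjusted p = 0.00163). STIP1, the adaptor between HSP70 and HSP90, fell, with log2 changes of -0.53 and -0.59. PTGES3, the p23 protein that steadies the closed form of HSP90, fell, with log2 changes of -0.73 and -0.42. The second call had an adjusted p of 0.022 in limma and was lost when control 2, control 3 or replicate 1 or 2 of shRASSF2-2 was left out (adjusted p from 0.0526 to 0.0864).

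CHORDC1, a co-chaperone of HSP90, fell with shRASSF2-1 from 1060.3 ± 286 to 598 ± 34.0 (log2 -0.79, limma adjusted p = 0.00303). With shRASSF2-2 it stood at 823 ± 32.1, between the controls, and the change of -0.33 missed the threshold (adjusted p = 0.127). Without control 1 that change was -0.57 and called (limma adjusted p = 9.19e-06). AHSA1, which stimulates the ATPase of HSP90, had the smallest mean size of change over the 2 shRNAs among these genes. It read 893, 1711 and 1784 in the control libraries, 1082, 942 and 839 in those of shRASSF2-1 and 1308, 1322 and 1395 in those of shRASSF2-2, and control 1 overlapped the knockdown libraries. The log2 differences were -0.56 (adjusted p = 0.0546) and -0.06 (adjusted p = 0.835, interval -0.55 to 0.44). Without control 1 they were -0.88 and -0.38, and both were called. Under equal totals the calls of STIP1, PTGES3 and CHORDC1 with shRASSF2-1 were lost.

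Of cytosolic HSP70 proteins and their exchange factors, 5 of 6 were lower with shRASSF2-1 (83.3%, beside 29.2% of all genes). With shRASSF2-2, 5 were lower and 1 higher (83.3% and 16.7%, beside 29.1% and 31.8%). HSPA8, the constitutive HSP70, had the most reads per kilobase of exon of all members in the controls (15307, ahead of HSP90AB1 at 11631). It read 26372, 49177 and 48392 in the control libraries, 16429.7, 14226 and 13513 in those of shRASSF2-1 and 27818, 27939 and 24841 in those of shRASSF2-2. The first shRNA lay below every control and the second overlapped control 1. Its log2 fold changes were -1.44 (limma adjusted p = 0.000229) and -0.57 (adjusted p = 0.0386). Without control 1 the second value was -0.86. That call was lost without control 2, control 3, replicate 2 or 3 of shRASSF2-1 or any replicate of shRASSF2-2 (adjusted p from 0.0537 to 0.141), and the replicate number as a block gave 0.0551.

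HSPH1 and HSPA4, the HSP110 type exchange factors, fell with both. HSPH1 went from 5287 ± 1593 to 2311 ± 119 and 3249 ± 317, with log2 changes of -1.14 and -0.66, though the second call was lost without control 2 or shRASSF2-2 replicate 3 (limma adjusted p = 0.0561 and 0.0571). HSPA4 fell, with log2 changes of -0.46 and -0.47, and of -0.29 and -0.30 among the libraries of the shared flow cell. BAG2, an exchange factor that also inhibits the ubiquitin ligase STUB1, read 329, 519.8 and 462 in the control libraries, 145, 180.4 and 145 in those of shRASSF2-1 and 214, 249.6 and 265 in those of shRASSF2-2. The groups did not overlap, and it fell, with log2 changes of -1.45 (adjusted p = 6.46e-05) and -0.82 (adjusted p = 0.00229).

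BAG3, which joins HSP70 to small heat shock proteins and to autophagy, moved in opposite directions. Its 3 control libraries read 691, 798 and 794, those of shRASSF2-1 377, 352 and 338, and those of shRASSF2-2 989, 989 and 968. No group overlapped another. It fell with shRASSF2-1, at -1.09 (SE 0.091, limma adjusted p = 4.51e-06) and rose with shRASSF2-2, at 0.37 (adjusted p = 0.00477, and 0.0759 with the flow cell as a covariate). It was the sole member called in opposite directions, as were 5.65% of all genes tested with that order of signs. HSPA14, a ribosome-bound HSP70, showed another order. It read 1414, 1552 and 1577 in the control libraries, 1358, 1454 and 1292 in those of shRASSF2-1 and 1059, 1043 and 988 in those of shRASSF2-2, where the last group alone lay below all others. The log2 values were -0.15 (adjusted p = 0.153, and 0.23, a called rise, under equal totals) and -0.55 (adjusted p = 0.000172). Without control 1 the value with shRASSF2-1 was -0.20 and a called fall (limma adjusted p = 0.0212).

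The J-domain proteins, which stimulate the ATPase of HSP70 and choose its substrates, were called in both directions. Of 7, 3 fell and 1 rose with shRASSF2-1, and 1 fell and 2 rose with shRASSF2-2. For shRASSF2-1 these are 42.9% and 14.3%, beside 29.2% and 26.9% of all genes. For shRASSF2-2 they are 14.3% and 28.6%, beside 29.1% and 31.8%, so the share that rose is near that of all genes. DNAJA1, a partner of HSPA8 with a heat shock element at its start, read 4609.7, 6955 and 7081 in the control libraries, 2824, 2697 and 2508 in those of shRASSF2-1 and 5279.8, 5498 and 5807 in those of shRASSF2-2. The first shRNA lay below every control, at -1.19 (limma adjusted p = 7e-05), and the second lay among them, at -0.14 (adjusted p = 0.424). Without control 1 the second value was -0.35 and was called. DNAJA2, a close paralog, fell, with log2 changes of -1.07 and -0.41, the second with an adjusted p of 0.0550 when the flow cell was a covariate. DNAJB1, the heat-inducible partner of HSP70, fell with shRASSF2-1, at -0.51 (adjusted p = 0.00796) and stood at -0.26 with shRASSF2-2 (adjusted p = 0.122). Without control 1 the value with shRASSF2-2 was -0.41 and called (limma adjusted p = 0.000552).

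DNAJB4, another partner of HSP70, was the member with the largest rise. It read 145, 267 and 237 in the control libraries, 207, 248 and 191 in those of shRASSF2-1 and 558, 516 and 599 in those of shRASSF2-2. The first shRNA overlapped the controls (0.03, interval -0.43 to 0.49), and the second stood above every other library, at 1.41 (SE 0.21, limma adjusted p = 0.000161). DNAJB6, which keeps polyglutamine proteins from aggregating, went from 1505 ± 297 to 2355 ± 113 with shRASSF2-2 and rose by 0.67 (adjusted p = 0.00148). With shRASSF2-1 it stood at 1235 ± 80.1, -0.27 (adjusted p = 0.117), which became -0.44 and was called without control 1. DNAJC7, which binds both HSP70 and HSP90, rose with shRASSF2-1 by 0.29 (adjusted p = 0.0171), and the call was lost without control 2, control 3 or shRASSF2-1 replicate 1 (0.0543 to 0.0547). With shRASSF2-2 it stood at 0.21 (limma adjusted p = 0.0578, interval 0.02 to 0.41). That value became 0.30 and was called without control 1 (adjusted p = 0.000543). DNAJC2, the partner of HSPA14 at the ribosome, had control values of 935, 991 and 1202, then 1132, 1052 and 919.9 for shRASSF2-1 and 1173, 1070.0 and 1253 for shRASSF2-2, and all groups overlapped. Its differences were -0.01 (interval -0.27 to 0.25) and 0.17 (interval -0.10 to 0.43), and under equal totals the first became 0.37, a called rise.

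The 4 mitochondrial chaperones had the lowest median with shRASSF2-1 of the groups of more than 1 gene, -1.25, and stood at -1.24 with shRASSF2-2. HSPD1 (HSP60) had control values of 11095, 17387 and 17253, then 4962, 4657 and 4541 for shRASSF2-1 and 5327, 5684 and 5275 for shRASSF2-2. Every knockdown library was below every control, and it fell, with log2 changes of -1.66 (limma adjusted p = 9.03e-06) and -1.46 (adjusted p = 1.4e-05). HSPE1 (HSP10) encodes its lid. It read 250.4, 776 and 1004 in the control libraries, 169.6, 127 and 125 in those of shRASSF2-1 and 255, 285 and 324 in those of shRASSF2-2, so that control 1 was far below the other controls and below all 3 libraries of shRASSF2-2. It fell with shRASSF2-1, at -2.05 (adjusted p = 0.00165). With shRASSF2-2 the value was -1.01 (adjusted p = 0.0517), and without control 1 it was -1.62 and called.

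HSPD1 and HSPE1 start 105 bases apart on chromosome 2 and are transcribed away from each other, so their promoter windows overlap. A single E-box, CACGTG, the motif bound by MYC with MAX and by related factors, lies at chr2:197500357-197500362 in both windows. It is in capitals in the HSPE1 promoter (RefSeq, GRCh38.p14, chr2:197500129-197500428, plus strand), which is shown because the 2 genes of this pair fell together with shRASSF2-1.
HSPE1: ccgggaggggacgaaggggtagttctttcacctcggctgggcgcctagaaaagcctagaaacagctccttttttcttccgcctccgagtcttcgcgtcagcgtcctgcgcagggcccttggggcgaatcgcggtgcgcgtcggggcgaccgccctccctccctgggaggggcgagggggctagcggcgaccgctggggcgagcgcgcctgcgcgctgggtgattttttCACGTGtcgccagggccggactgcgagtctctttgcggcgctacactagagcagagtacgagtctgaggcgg

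Its first base is at -22 from the start of HSPE1 and at -88 from that of HSPD1. CACGTG, which reads the same on both strands, was in 4 of the 34 promoters (11.8%: HSPD1, HSPE1, HSPA9 and HSF2) and in 7.43% of all promoters. None of these windows held an exact match to either heat shock pattern searched, and other forms of the element were not searched. HSPE1 overlaps the read-through gene HSPE1-MOB4, and how reads on both were counted is not known. HSPD1, HSPE1, HSPA8 and the HSP90 genes have processed pseudogenes. The counts of all these genes are uncertain to that extent. HSPA9, the HSP70 of the matrix and the motor of protein import, fell with both shRNAs. It read 7474, 9225 and 8747 in the control libraries, 4608, 4776 and 4716 in those of shRASSF2-1 and 4627, 4860.1 and 4425 in those of shRASSF2-2, without overlap with the controls. The log2 fold changes were -0.85 (limma adjusted p = 2.72e-05) and -0.87 (adjusted p = 1.46e-05).

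DNAJA3, its J-domain partner in mitochondria, was the most variable member. It read 36.3, 207 and 208 in the control libraries, 117, 70.7 and 40.8 in those of shRASSF2-1 and 5.67, 46.5 and 2.20 in those of shRASSF2-2. Libraries of one group differed several-fold from each other, and shRASSF2-2 replicate 2 was above control 1. The log2 values were -0.73 (SE 0.95, limma adjusted p = 0.535) and -3.55 (adjusted p = 0.00784). It also had the fewest reads per kilobase of exon in the controls, 54.4.

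All 8 TRiC subunit genes fell with both shRNAs, also under equal totals. Of all genes tested, 16.7% fell with both, and under equal totals 16.8% fell with shRASSF2-1 and 29.4% with shRASSF2-2. With the authors' scaling the TRiC log2 fold changes ran from -2.39 to -0.71 with shRASSF2-1 and from -1.36 to -0.31 with shRASSF2-2. CCT4 (chr2:61868085-61888671, minus strand, GRCh38, where it overlaps COMMD1) fell furthest with shRASSF2-1, and CCT7 with shRASSF2-2. CCT4 read 4391, 5098 and 4870.2 in the control libraries, 1024, 943 and 778 in those of shRASSF2-1 and 2283, 2242 and 2271 in those of shRASSF2-2, 3 ranges that did not touch. The fold changes were -2.39 (SE 0.11, limma adjusted p = 1.41e-07) and -1.08 (adjusted p = 8.33e-06). CCT7 had the order reversed: it read 5407, 6085 and 5787, then 3423, 3117 and 2932, then 2249, 2315 and 2155, and fell, with log2 changes of -0.87 and -1.36 (adjusted p = 2.68e-07).

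CCT8 read 5654, 7688 and 7296 in the control libraries, 3394, 3343 and 3360.2 in those of shRASSF2-1 and 5466, 5646 and 5429 in those of shRASSF2-2. With shRASSF2-2 its libraries sat just under the lowest control, and it fell, with log2 changes of -1.02 (limma adjusted p = 2.49e-05) and -0.31 (adjusted p = 0.0308). The second call was lost without control 2, control 3 or any replicate of shRASSF2-2 (0.0602 to 0.118). The other 5 subunits kept to a narrower range: TCP1 at -0.93 and -1.08, CCT2 at -0.85 and -1.07, CCT3 at -0.71 and -1.01, CCT5 at -1.08 and -1.33, and CCT6A at -1.21 and -0.87.

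Shares within the TRiC reads do not depend on the scaling between libraries. CCT4 supplied 9.21% to 9.71% of the summed TRiC values among controls, 3.27% to 4.01% for shRASSF2-1 and 8.39% to 9.05% for shRASSF2-2. CCT8 supplied 12.5% to 13.9%, 13.3% to 14.1% and 21.1% to 21.7% in the same order. CCT5, the largest contributor in the controls at 21.3% ± 0.63, stood at 20.9% ± 0.54 and 16.8% ± 0.17. These are shares of reads and not of molecules, since the transcripts differ in length, and they were not tested.

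**Figure D3:**
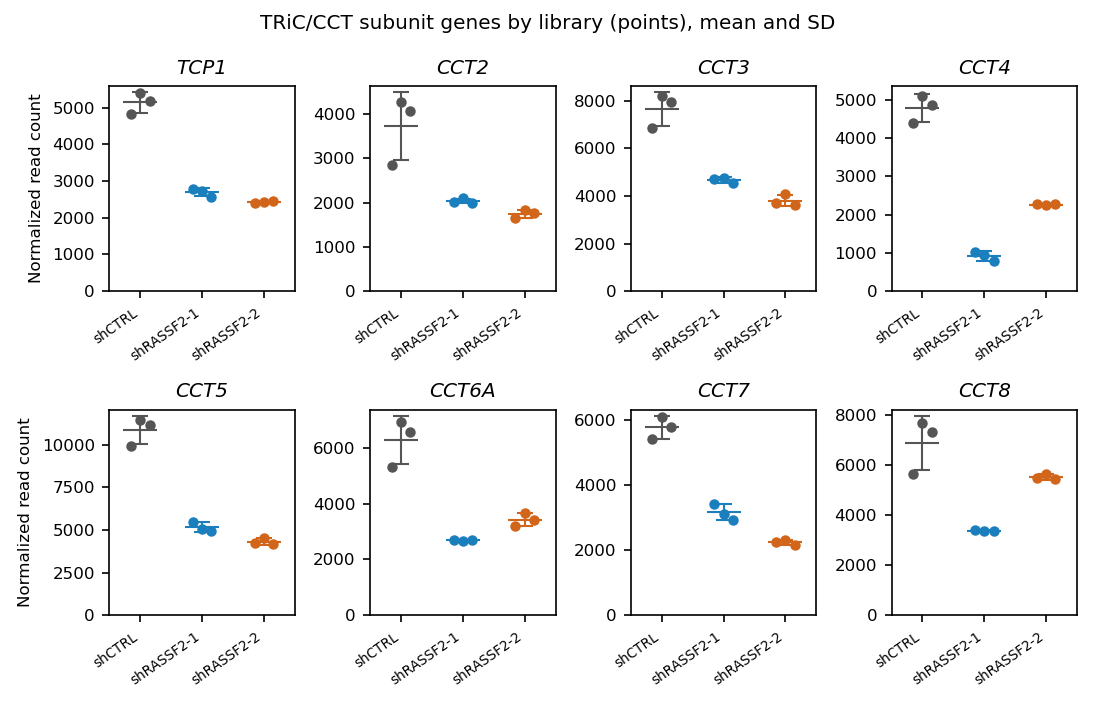
Normalized read counts of the 8 TRiC subunit genes in each library (points), with the mean and SD of each group, on axes that start at 0. CCT4 is lowest with shRASSF2-1 (943 in its middle library), and CCT8 with shRASSF2-2 lies close to the controls (5429 to 5646, against 5654 in the lowest control).

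Of prefoldin, which hands unfolded actin and tubulin to TRiC, 1 of 4 measured subunits fell with each shRNA: PFDN2 with shRASSF2-1 and PFDN4 with shRASSF2-2. That share is near the 29.2% and 29.1% of all genes called lower. PFDN2 read 855, 1279.7 and 1401 in the control libraries, 713, 658 and 597 in those of shRASSF2-1 and 1066, 992 and 1131 in those of shRASSF2-2. The first shRNA was below every control (-0.82, limma adjusted p = 0.00171, lost under equal totals), and the second lay among them (-0.12, adjusted p = 0.548). Without control 1 the second value was -0.34 and called (limma adjusted p = 0.00315). PFDN4 read 224, 329.7 and 378, then 235, 232 and 196, then 142, 158 and 159. Here the second shRNA was below every control (-0.98, adjusted p = 0.000883) and the first overlapped them (-0.46, adjusted p = 0.0545). Without control 1 the PFDN4 value with shRASSF2-1 was -0.68 and called (limma adjusted p = 0.000333).

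PFDN1 read 481, 702 and 846 in the control libraries, 729.7, 653 and 616 in those of shRASSF2-1 and 829, 876 and 902 in those of shRASSF2-2, with overlap throughout between knockdowns and controls. The differences were 0.01 (limma adjusted p = 0.955) and 0.40 (adjusted p = 0.0688). Without control 3 the second was 0.58 and called (limma adjusted p = 0.00779). Among the libraries of the shared flow cell, which hold 1 control, the first was -0.35. PFDN5, also known as a binding partner of MYC, had control values of 989, 2259 and 2418, with control 1 far below the others, then 3018, 2531 and 2556 for shRASSF2-1 and 2355, 2225 and 2504 for shRASSF2-2. It was called with neither (0.62 and 0.43, adjusted p = 0.0767 and 0.2). The first value was called higher when any 1 control was left out, at 0.20 without control 1 (limma adjusted p = 0.0369), 0.80 without control 2 (0.0462) and 0.85 without control 3 (0.0208). It was also called under equal totals, at 1.00 (0.0112). PFDN5 supplied 45.4% ± 5.75 of the reads of the 4 subunits in the controls, 63.6% ± 1.29 for shRASSF2-1 and 53.1% ± 0.67 for shRASSF2-2.

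HSPB1, the small heat shock protein HSP27, which holds unfolded proteins without using ATP (chr7:76302673-76304292, plus strand, GRCh38), read 3849, 3944 and 4200.1 in the controls. The shRASSF2-1 libraries read 1335, 1347 and 1246 and the shRASSF2-2 libraries 4053, 4324 and 3978. The first shRNA lay far below, at -1.61 (SE 0.076, limma adjusted p = 1.59e-07), and the second overlapped the controls, at 0.04 (adjusted p = 0.642, interval -0.12 to 0.21). The 3 controls lay close together here, unlike those of many other members.

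Of the transcription factors, HSF1 read 2076, 1509.7 and 1443 in the control libraries, 1018, 1073 and 991 in those of shRASSF2-1 and 1443, 1506 and 1376 in those of shRASSF2-2. It fell with the first, at -0.69 (limma adjusted p = 0.00101) and overlapped the controls with the second, at -0.20 (adjusted p = 0.199). The HSF1 gene overlaps DGAT1. HSF2, a paralog that can pair with HSF1, read 255, 395 and 439.6, then 382, 369.6 and 438 for shRASSF2-1 and 324, 313 and 309 for shRASSF2-2, and each knockdown overlapped the controls. Its differences were 0.16 (adjusted p = 0.473) and -0.17 (adjusted p = 0.444), and without control 1 the second was -0.40 and called. Under equal totals the first was 0.54 and a called rise (0.0307). In the authors' deposited table, which has a single knockdown against control comparison, 23 of the 39 members were lower with an adjusted p-value under 0.05, against 15.3% of its genes, and 0 were higher, against 16.5%.

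By the overlap of the libraries alone, 28 members had every shRASSF2-1 library below every control and 2 had every one above, where 31.3% and 29.9% of all genes tested did. With shRASSF2-2, 20 were wholly below and 3 wholly above, against 30.6% and 33.9%. No source used here gives the strand used in counting, and 19 of the 39 genes overlap another RefSeq gene, such as DNAJB1 with TECR, DNAJB4 with FUBP1 and TCP1 with ACAT2.

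The shRNAs also differed from each other. From shRASSF2-1 to shRASSF2-2, 16 members were higher and 6 lower, against 30.0% of all genes higher and 28.5% lower. For 23 members every shRASSF2-2 library was above every shRASSF2-1 library and for 10 every one was below, against 36.8% and 37.2% of all genes. The split depended on scaling: under equal totals it was 8 higher and 14 lower, while all genes split into 2905 higher and 7318 lower. The members' median was 0.35 with the authors' scaling and -0.043 under equal totals, which is 0.38 and 0.37 relative to all genes.

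The 8 members that were higher with shRASSF2-2 under either scaling were HSPB1, BAG3, DNAJB4, CCT4, DNAJA1, DNAJB6, CCT8 and DNAJA2. HSPB1 differed most, by 1.65 (SE 0.076, limma adjusted p = 3.94e-08), or 3.15 times the shRASSF2-1 mean. BAG3 differed by 1.46, DNAJB4 by 1.38, CCT4 by 1.32 and DNAJA1 by 1.05. DNAJB6 differed by 0.93, CCT8 by 0.71 and DNAJA2 by 0.65, each with an adjusted p of 0.00025 or less. HSPA8 was 0.87 higher with shRASSF2-2 (adjusted p = 0.00496) and missed the threshold under equal totals, as did BAG2, CHORDC1, FKBP4, HSF1, HSPE1 and PFDN2. CHORDC1 lost its call when any 1 of the 6 knockdown libraries was left out (limma adjusted p of 0.0642 to 0.112). HSPE1 did so with any 1 of these or control 2 left out (0.0546 to 0.132), and CCT6A, the last of the 16 at 0.35, without shRASSF2-2 replicate 2 (0.0634).

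The 6 lower members were CCT7 (-0.49), HSPA14 (-0.41), PFDN4 (-0.53), CCT3 (-0.30), CCT5 (-0.25) and DNAJA3 (-2.82). DNAJA3 had a limma adjusted p of 0.0256, which was 0.0609 by edgeR and 0.0978 by DESeq2. That call was also lost without replicate 1 or 2 of shRASSF2-1 or replicate 1 or 3 of shRASSF2-2 (0.0623 to 0.108), and so was that of CCT5 (0.0577 to 0.105). The call of CCT3 was lost without shRASSF2-1 replicate 2 or shRASSF2-2 replicate 1 or 3 (0.0533 to 0.0649), and that of PFDN4 without shRASSF2-1 replicate 1 or 2 or any replicate of shRASSF2-2 (0.0586 to 0.0949). HSP90AA1 (0.09, interval -0.17 to 0.35), HSPA9 (-0.02, interval -0.22 to 0.18) and HSPA4 (-0.02, interval -0.22 to 0.18) were not told apart between the shRNAs. Under equal totals all of these were called lower with shRASSF2-2, at -0.30 (limma adjusted p = 0.0435), -0.41 (0.00313) and -0.41 (0.00111).

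**Figure D4:**
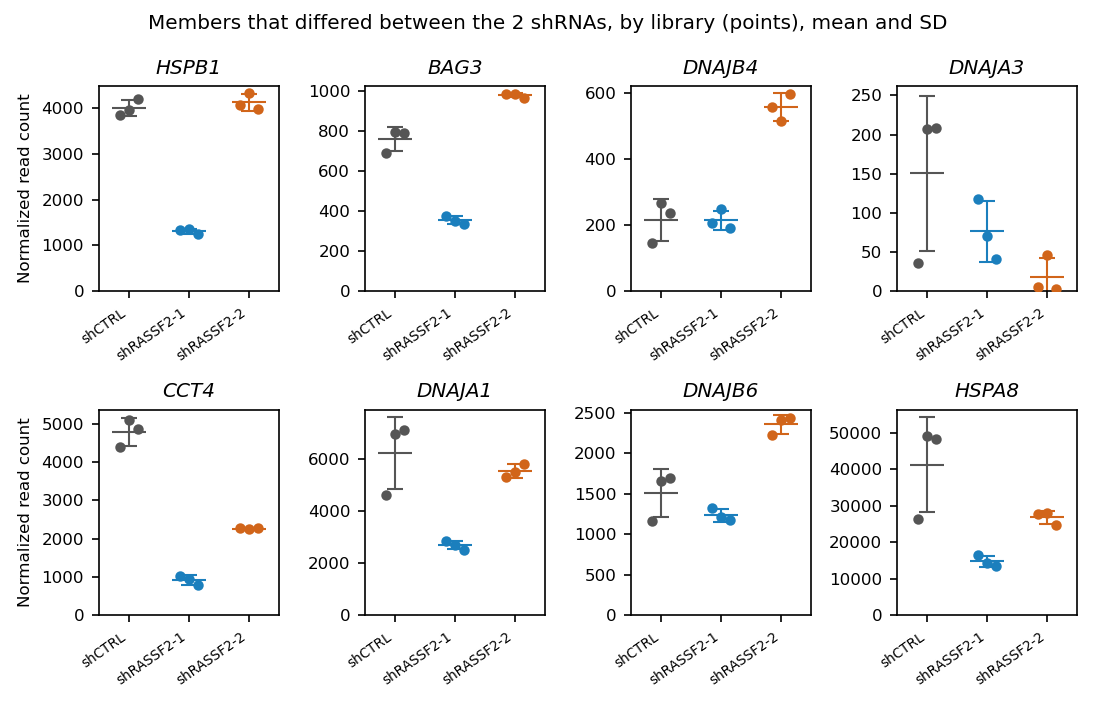
Normalized read counts in each library (points) of 8 members that differed between the shRNAs, with the mean and SD of each group, on axes that start at 0, where the SD bar of DNAJA3 is cut. HSPB1 and DNAJA1 with shRASSF2-2 overlap the controls, DNAJB4 and DNAJB6 lie above them, and CCT4 lies between the other groups.

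Other genes of the same processes were read from lists for comparison. Of 71 further cytosolic and mitochondrial chaperone and co-chaperone genes, 63 were tested. With shRASSF2-1, 30 fell and 10 rose (median -0.30), and with shRASSF2-2, 28 fell and 10 rose (median -0.25). For shRASSF2-1 these are 47.6% and 15.9% of the 63, beside 29.2% and 26.9% of all genes, and for shRASSF2-2 44.4% and 15.9%, beside 29.1% and 31.8%. Under equal totals the first split was 15 lower and 19 higher (23.8% and 30.2%), beside 16.8% and 45.1% of all genes. TRAP1, the mitochondrial HSP90, had a log2 fold change of -1.45 with shRASSF2-2, and VBP1, a further prefoldin subunit, of -1.56. Both fell. TOMM34, a co-chaperone of HSP70 and HSP90, fell with shRASSF2-1 (-2.01), as did PDCL3, a phosducin-like partner of TRiC (-1.80). With shRASSF2-2 TOMM34 read 467 to 525, below the 703 to 819 of the controls. PDCL3 read 435 to 469 there and overlapped the controls (419 to 625). DNAJB5 and DNAJB2, J-domain proteins, rose with both shRNAs, by 1.06 and 1.09 with shRASSF2-1 and by 1.97 and 1.36 with shRASSF2-2.

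HSPA6, a strictly stress-induced HSP70, read 37.5, 41.5 and 50.6 in the control libraries, 12.4, 9.73 and 8.16 in those of shRASSF2-1, and 54.4, 69.2 and 51.6 in those of shRASSF2-2. It fell with the first (limma adjusted p = 9.51e-05) and was 2.43 higher with the second than with the first (adjusted p = 1.91e-05). Of 24 genes for folding in the endoplasmic reticulum, 17 fell and 4 rose with shRASSF2-1 (10 and 5 under equal totals), and 8 fell and 7 rose with shRASSF2-2. The shRASSF2-2 counts, 33.3% and 29.2% of the 24, are near the 29.1% and 31.8% of all genes. With shRASSF2-1 they are 70.8% and 16.7%, beside 29.2% and 26.9% of all genes, and 41.7% and 20.8% under equal totals, beside 16.8% and 45.1%. MANF, a secreted protein of the unfolded protein response, fell with both shRNAs (-2.47 and -1.37), as did XBP1, a transcription factor of that response (-1.67 and -1.52). CANX, a chaperone for glycoproteins, fell with shRASSF2-1 (-2.13). With shRASSF2-2 CANX read 11841 to 12694, also below the 18117 to 24074 of the controls. The shRNAs differed most in CALR, its soluble counterpart, which was 2.03 higher with shRASSF2-2.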

How the data were processed

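The data were poly(A) RNA sequencing libraries of THP-1 cells. The submitters' processing notes name the build hg38 and, without saying what each tool did, DESeq2 1.18.1, featureCounts 1.6.2, HISAT2 2.1.0 and Picard. No source used here gives the annotation. As deposited, values are a normalized signal. In each library 100% of them equalled a whole number (tolerance 0.001) times that library's lowest nonzero value, so they are counts over a size factor and the reads behind them are known. The deposited log2 fold change and adjusted p-value come from a single comparison by the authors, and the file header does not name its libraries. Symbols turned into dates (22) were restored by Entrez identifier, and 195 genes have no symbol.

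Members were matched by symbol, and positions came from RefSeq. The members and lists were chosen with earlier results of these data known. Values in every library are given for the largest and least changed members of each role group and any called in opposite directions, and the other members named were chosen after their values were seen. Limma-trend 3.58.1 in R 4.3.3 was fitted to log2(value + 1) over 9 libraries with group as the only term, for genes with at least 10 in at least 3 libraries, with Benjamini-Hochberg adjustment over 15465 genes and calls under 0.05. Fold changes are on that scale, and intervals are 95%. The fit was tested on simulated data. Alternatives were edgeR 4.0.16 and DESeq2 1.42.0 on recovered reads, scaling to equal totals, pseudocounts of 0.1 and 5, no filter, a filter at 50, a block for replicate number, a term for flow cell, a fit to the shared flow cell (7 libraries), fits to only the groups compared, and leaving out each library.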

Additional observations from a re-analysis of the deposited data

Results flagged for a closer look

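BAG3 was picked out because its response differed between the 2 shRNAs by a test of the difference itself. By that test it did not differ most, since HSPB1 differed by 1.65 (limma adjusted p = 3.94e-08). BAG3 was 1.46 higher on the log2 scale with shRASSF2-2 than with shRASSF2-1 (limma adjusted p = 3.27e-07), with all 3 libraries of the former above all 3 of the latter. Under equal totals the difference was 1.07 and was still called.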

How the results depend on the processing

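For shRASSF2-2 against the controls, scaling to equal totals changed the call of 0 members, the shared flow cell alone and leaving out control 1 changed 8 each, and leaving out control 2 or control 3 changed 4 each. In the other comparisons scaling to equal totals gave 2596 genes lower and 6981 higher with shRASSF2-1, with 5 members higher, and 7318 lower and 2905 higher between the shRNAs, with 14 members lower and 8 higher. It reversed DNAJC2 (0.37) and HSPA14 (0.23) with shRASSF2-1, CCT6A (-0.043), HSP90AA1 (-0.30, called) and the members' median (-0.043) between the shRNAs, and ended the shRASSF2-1 calls of HSPA4 and DNAJB1. On the shared flow cell alone PFDN1 with shRASSF2-1 was -0.35. With only the groups compared, 10 members were lower between the shRNAs. Without control 1 also 10 were lower between the shRNAs (25.6%) and 23 higher (59.0%), beside 35.6% and 35.8% of all genes. Leaving out each library gave 0 to 2 members higher with shRASSF2-1 (2 without control 1, 0 without shRASSF2-1 replicate 1) and 2 to 10 lower between the shRNAs (10 without control 1). It also gave 19 to 30 members lower with shRASSF2-2 and 28 to 32 with shRASSF2-1. By edgeR and DESeq2, AHSA1 and PFDN4 were also called with shRASSF2-1 and HSPE1 with shRASSF2-2. The cause of these changes was not tested. With 1 control left on the shared flow cell, that control is assumed to vary like the other groups.

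Same-numbered libraries did not deviate together (correlations across genes of -0.156 to 0.120), so no pairing by number was seen in the values. Such correlations cannot settle whether libraries with the same number were handled together. With the replicate block, 28 members fell and 1 rose with shRASSF2-1, and 22 fell and 3 rose with shRASSF2-2. Between the shRNAs 5 were lower and 16 higher, since CCT5 missed the threshold (0.0513). With 3 libraries a group, members as variable as DNAJA3 give wide intervals.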
